A study of Homo sapiens with 14 samples.

Results

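Iron-handling genes were followed in PANC-1 cells, a human pancreatic cancer line, exposed to proanthocyanidins (PA), plant polyphenols that can bind iron. The set was chosen by gene symbol and holds 10 of the 28120 genes in the read-count table: TFRC and SLC11A2 for uptake, FTH1 and FTL for storage, SLC40A1 for export, ACO1, IREB2 and FBXL5 for sensing, NCOA4 for release from storage, and LCN2. Each symbol matched 1 row. After a filter on low counts 9 of the 10 were tested, and SLC40A1 was not.

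RNA-seq was run on 14 libraries in 7 groups of 2. Cells received PA at 20 µg/ml for 3, 12 or 24 h, or the DMSO vehicle for 0, 3, 12 or 24 h. All groups were PANC-1 cultures in the same serum-containing medium, at passage 3 to 5, with no genetic change named, so every result is from a single line. The series text speaks of biological replicates without saying how the cultures were kept apart, and the p-values therefore reflect the scatter of these libraries alone, which may be technical.

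Animal cells take up iron mainly as transferrin bound to the transferrin receptor TFRC, move it out of endosomes through the transporter SLC11A2 (DMT1), store it inside ferritin shells built of FTH1 and FTL chains, and export it through ferroportin, SLC40A1. The iron regulatory proteins IRP1 (from ACO1) and IRP2 (from IREB2) bind hairpins called iron-responsive elements when iron is scarce. Binding in the 5′ UTR of ferritin and ferroportin transcripts blocks their translation, and binding in the 3′ UTR of TFRC protects that transcript from decay. FBXL5 marks the iron regulatory proteins for degradation when iron is plentiful, NCOA4 carries ferritin to the lysosome, and LCN2 is a secreted lipocalin that holds iron through siderophores.

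The hairpins are shown because a hairpin that is found gives the end of the transcript at which an iron switch can act. GENCODE 29 transcripts on GRCh38 were searched for a C, 5 bases, the loop CAGTGN and 5 bases that pair with the first 5, on the strand of the transcript. The loop is in capitals, the letters read 5′ to 3′, and T stands for U.
TFRC site 1: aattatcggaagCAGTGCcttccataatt
TFRC site 2: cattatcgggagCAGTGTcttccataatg
TFRC site 3: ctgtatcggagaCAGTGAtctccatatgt
TFRC site 4: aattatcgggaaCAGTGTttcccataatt
FTH1 site 1: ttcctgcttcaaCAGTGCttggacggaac
FTL site 1: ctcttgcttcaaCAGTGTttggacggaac
SLC40A1 site 1: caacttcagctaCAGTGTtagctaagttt

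The 4 TFRC sites lie in exon 19, in the 3′ UTR, on the minus strand at chr3:196050979-196051007, chr3:196050575-196050603, chr3:196050510-196050538 and chr3:196050463-196050491. The FTH1 site is in the 5′ UTR in exon 1 on the minus strand at chr11:61967574-61967602. The FTL site is in the 5′ UTR in exon 1 on the plus strand at chr19:48965335-48965363, and the SLC40A1 site is in the 5′ UTR in exon 1 on the minus strand at chr2:189580661-189580689. Of 19922 coding genes searched, 15 (0.0753%) held this form in a 5′ UTR and 99 (0.497%) in a 3′ UTR. The other 6 members held none of this exact form, which says only that these letters are absent from the transcripts searched. An element of another form would be missed, so the search does not settle which members, SLC11A2 among them, have a direct iron switch. The hairpins act on translation or decay, and only the transcript level was measured here.

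Levels of different genes were compared per length, on the authors' RPKM scale (reads scaled to transcript length and library depth). In the DMSO 0 h libraries FTL was highest at 356 and 344 RPKM, followed by FTH1 at 105 and 131 and TFRC at 85.4 and 66.6. NCOA4 stood at 22.8 and 19.6, FBXL5 at 10.5 and 8.10, and ACO1 at 5.72 and 5.79. LCN2 at 3.59 and 4.02 RPKM and IREB2 at 3.91 and 3.31 overlapped, and SLC11A2 was at 2.64 in both. The other neighbours in this order did not overlap at 0 h.

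The order changed in both arms. In the DMSO 12 h libraries TFRC, at 111 and 97.5 RPKM, stood above FTH1, at 38.7 and 36.0. In the PA 24 h libraries FTH1, at 129 and 138 RPKM, stood above TFRC, at 49.8 and 50.7. In DMSO 12 h replicate 1 FTH1 held 1818 reads and BEST1, a gene overlapping it, 8933. Reads of these genes cannot be assigned with certainty, as described below, so the place of FTH1 in the order is uncertain at each time. LCN2 was the lowest of the 9 tested members in the DMSO 12 h and 24 h libraries, at 0.23 to 0.76 RPKM, and stood above IREB2 and SLC11A2 in the PA 24 h libraries, at 3.72 and 4.34.

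**Figure D1:**
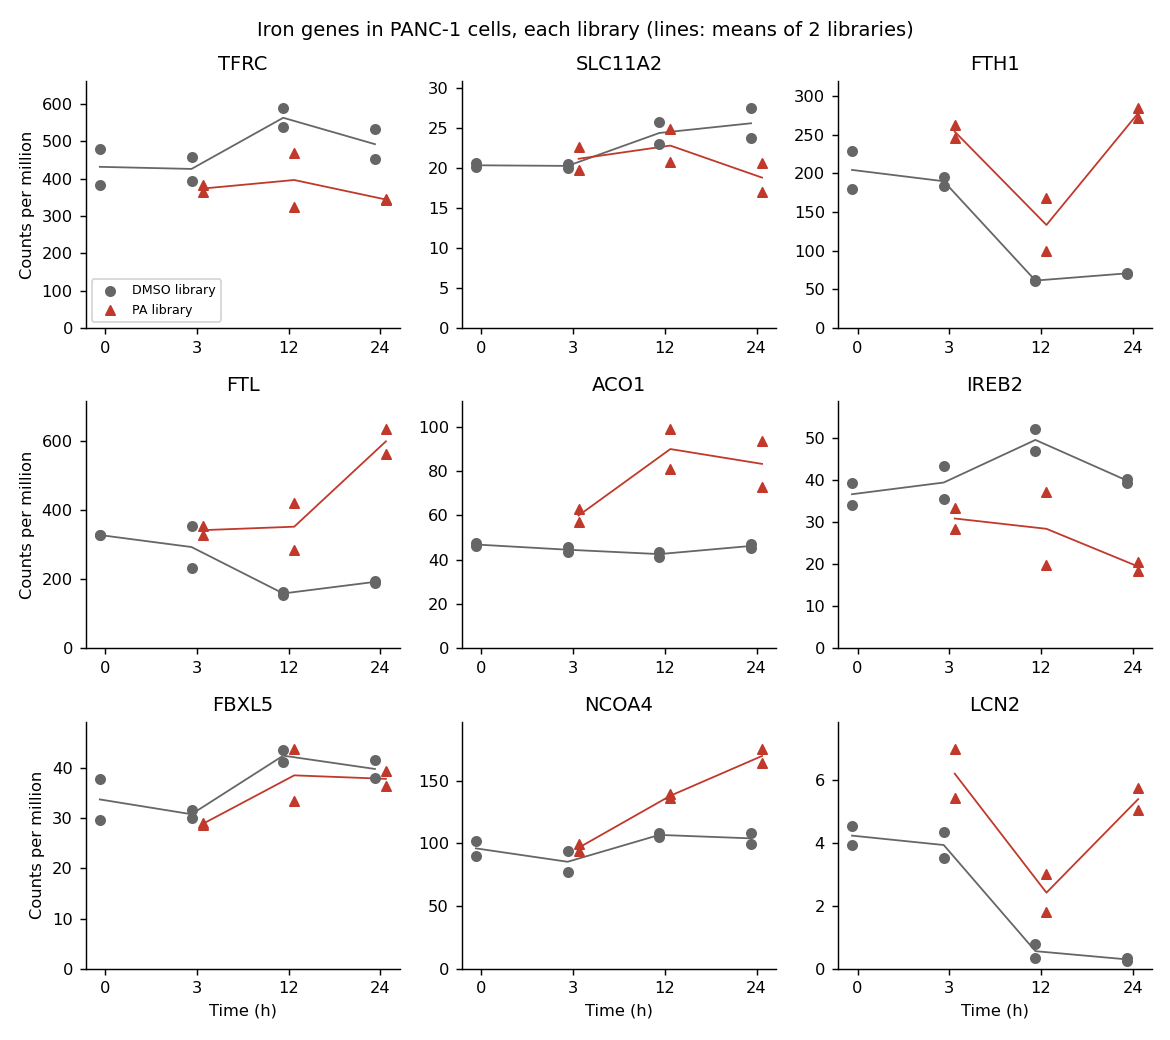
Read counts scaled by effective library size, in CPM (vertical axes, each from 0), of the 9 tested members against time in h, 1 point per library, with lines through the mean of 2 libraries for the DMSO and PA arms. Times are evenly spaced, not to scale. FTH1, FTL and LCN2 are lower in DMSO at 12 h than at 0 h and higher with PA at 12 and 24 h, while IREB2 and TFRC are lower with PA as counted, which did not hold after the GC and length correction.

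Differences between groups are given as log2 changes with their standard error from a model over all 14 libraries, with edgeR, and a gene is called higher or lower at an adjusted p under 0.05. At 3 h of PA none of the 9 members passed, where 1.72% of all 15181 tested genes did (0.138% higher, 1.58% lower). By unadjusted p 3 members were under 0.05 (FTH1, ACO1 and LCN2), among 2600 genes in all, and DESeq2, another count test, called 0 members and 584 genes. At 12 h 5 members were higher (FTH1, FTL, ACO1, NCOA4 and LCN2) and 2 lower (TFRC and IREB2), where 48.5% of all tested genes were called. At 24 h the same 5 were higher and 3 were lower (TFRC, SLC11A2 and IREB2), where 54.6% were called. Since about as many genes rose as fell at both times (24.4% and 24.1%, then 27.2% and 27.5%), the number of members called is described against a background in which a call is common. The median change of the 9 members was 0.18, 0.37 and 0.71 at 3, 12 and 24 h, and that of all tested genes -0.01, 0.01 and -0.01.

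A property of the libraries moved with the treatment. Over all tested genes, log2 level against the GC content of the transcript had a slope of -0.32 to -0.06 per 10 points of GC in the 8 DMSO libraries and of 0.03 to 0.58 in the 6 PA libraries, with no overlap. TFRC (41.5% GC), IREB2 (38.3%), FBXL5 (40.5%), SLC11A2 (43.0%) and NCOA4 (43.1%) lie under the 48.8% median of tested genes, ACO1 (45.7%) is closer to it, and FTH1 (50.1%), LCN2 (54.7%) and FTL (56.3%) lie above it. The slope per doubling of transcript length was 0.004 to 0.146 in the DMSO libraries and -0.192 to 0.005 in the PA libraries. LCN2 (848 nt), FTL (878 nt) and FTH1 (1229 nt) are shorter than the 3084 nt median. The other tested members are longer, from FBXL5 (3385 nt) to TFRC (5111 nt), IREB2 (6354 nt) and ACO1 (7466 nt). A refit that removed each library's trend with GC content and transcript length is given beside the calls as the GC and length correction. It called 7 members higher and 0 lower at 12 h, and 6 higher and 0 lower at 24 h, where 22.5% and 27% of genes were called higher and 17.6% and 22.4% lower. The part of library composition in the uncorrected calls was not tested, and the correction would also remove a real change that followed GC content.

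**Figure D2:**
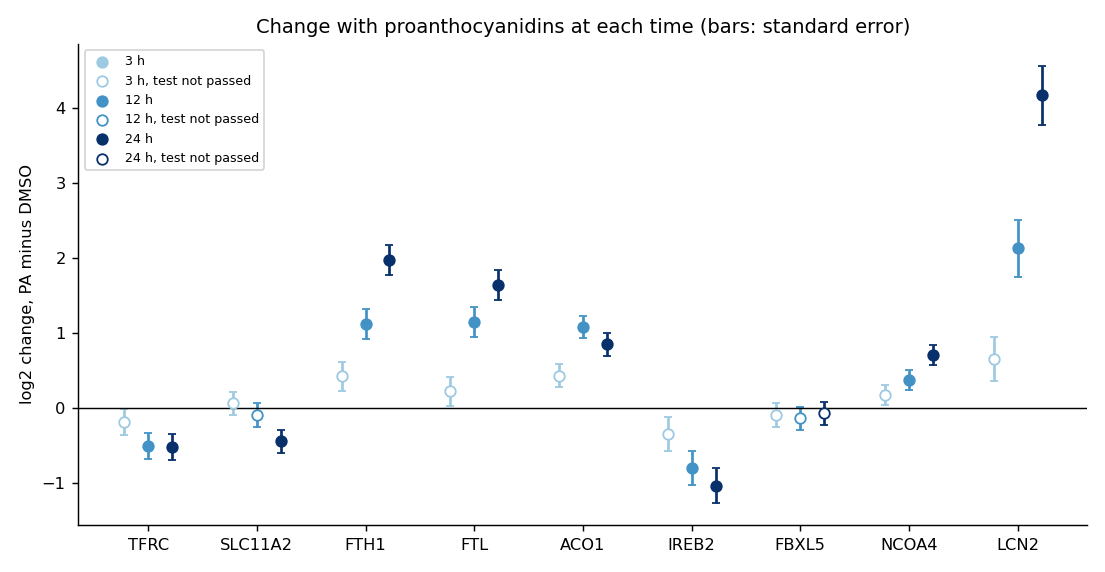
Change with PA against DMSO on the log2 scale (vertical axis) for each tested member at 3, 12 and 24 h, from lighter to darker points, with bars for the standard error of the fitted change. Filled points passed the test at an adjusted p under 0.05. No 3 h point passed, LCN2 reaches 4.16 at 24 h, and FBXL5 stays between -0.14 and -0.07.

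Both storage genes were higher with PA than with DMSO of the same time, while their DMSO levels at 12 h were under those at the start. FTH1 encodes the ferritin heavy chain, which oxidises iron as it enters the shell, and lies at chr11:61959718-61967660 on the minus strand. It was at 62.3 and 60.3 CPM (read counts scaled by effective library size) in the DMSO 12 h libraries and at 168 and 99.0 with PA. In the DMSO 24 h libraries it was at 70.1 and 71.2 CPM, and with PA at 272 and 284. At both times each PA library was above both DMSO libraries, and the PA 12 h pair was far apart. FTH1 had been at 179 and 230 CPM in the DMSO 0 h libraries and fell in DMSO over this time. The difference from DMSO was 1.12 ± 0.20 (adjusted p = 0.000643) at 12 h and 1.98 ± 0.20 (adjusted p = 9.03e-06), or 3.93-fold, at 24 h. In bulk RNA, more transcript per cell and more cells with the transcript cannot be told apart.

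FTL, the ferritin light chain, which helps the mineral core form, lies at chr19:48965301-48966878 on the plus strand. It stood at 164 and 154 CPM in DMSO and 420 and 284 with PA at 12 h. At 24 h the DMSO libraries held 191 and 194 CPM and the PA libraries 564 and 636. All 4 PA libraries exceeded all 4 DMSO libraries of these times. FTL, at 329 and 327 CPM in the DMSO 0 h libraries, was above DMSO of the same time by 1.15 ± 0.20 on the log2 scale (adjusted p = 0.000559) at 12 h and by 1.64 ± 0.20 (adjusted p = 3.34e-05), or 3.11-fold, at 24 h.

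Both ferritin genes stayed called after the GC and length correction, with smaller changes. FTH1 was then at 0.93 and 1.81 at 12 and 24 h, and FTL at 0.63 (adjusted p = 0.00134) and 1.09 (adjusted p = 7.11e-06). Without PA 12 h replicate 1 the FTH1 change at 12 h was 0.70 and remained called.

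At 3 h FTH1 was at 196 and 184 CPM with DMSO and 263 and 245 with PA. The pairs did not overlap, yet the change of 0.42 ± 0.19 had an adjusted p of 0.289. It passed only when PA 12 h replicate 1 or replicate 2 was left out (adjusted p = 0.0345 and 0.0341), among the alternatives run. FTL at 3 h, at 355 and 231 CPM in DMSO and 355 and 329 with PA, overlapped.

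Reads at FTH1 cannot be assigned with certainty. BEST1, a chloride channel gene on the opposite strand at chr11:61949821-61965515, shares 916 exon bases with FTH1, 56.6% of the FTH1 exon sequence in GENCODE 29. The deposited counts give BEST1 8933 to 35894 reads per library and FTH1 1818 to 8855. BEST1 changed with PA by 0.55 (adjusted p = 0.113), 1.30 (adjusted p = 6.92e-05) and 1.56 (adjusted p = 1.10e-05) at 3, 12 and 24 h.

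The 2 deposited tables differ for BEST1. Its RPKM of 0.06 to 0.32 is 0.14% of what its reads and longest transcript give, against 69.8% for FTH1 and a median of 88.9% over 9482 genes with at least 100 reads in every library. Only 128 of those genes (1.35%) were under 1%. From which gene these reads come cannot be told apart. With the reads of both summed, a setting added after the data were seen, the change was 0.52 (adjusted p = 0.128), 1.27 (adjusted p = 6.47e-05) and 1.63 (adjusted p = 6.69e-06) for FTH1 at 3, 12 and 24 h.

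LCN2 had the largest difference between PA and DMSO among the members. The gene, at chr9:128149071-128153455 on the plus strand, encodes lipocalin 2 (NGAL). It held 23 and 11 reads in the DMSO 12 h libraries (0.79 and 0.33 CPM) and 84 and 51 reads with PA (3.02 and 1.82 CPM). At 24 h the DMSO libraries held 8 and 11 reads (0.25 and 0.35 CPM) and the PA libraries 143 and 165 (5.04 and 5.75 CPM). The groups did not overlap at either time, and the DMSO values rest on few reads.

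LCN2 was above DMSO of the same time by 2.13 ± 0.38 on the log2 scale (4.36-fold, adjusted p = 0.000671) at 12 h and by 4.16 ± 0.39 (17.9-fold, adjusted p = 5.81e-06) at 24 h. It had been at 3.94 and 4.53 CPM in the DMSO 0 h libraries. Against that start LCN2 was at -2.93 and -3.82 in DMSO, and with PA at -0.81 (adjusted p = 0.0520) and 0.35 (adjusted p = 0.333). With the GC and length correction it was at 1.69 (adjusted p = 0.00125) and 3.71 (adjusted p = 1.02e-06). At 3 h it was at 3.52 and 4.36 CPM in DMSO and 6.98 and 5.43 with PA. Those pairs did not overlap, and the change of 0.65 had an adjusted p of 0.276. On the log2(RPKM + 1) scale, which understates the change of low genes, LCN2 was at 1.03 and 1.98 at 12 and 24 h.

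LCN2 is a known target of NF-kB, and its promoter holds a site of that shape. The RefSeq promoter window on GRCh38.p14 was searched on both strands for a loose NF-kB site pattern, GGG, any 5 bases and CC. It is shown in capitals in the stretch at chr9:128149267-128149296 on the plus strand.
LCN2 promoter: gcagcactccGGGAATGTCCctcactctcc
The match begins 176 bases before the RefSeq start used for that window, which lies inside the gene span given above. It overlaps another match of the same pattern shifted by 1 base, and is a description only. Of 35116 RefSeq promoter windows of that length, 58.7% hold the pattern. The pattern was also in the windows of 6 other members, among them ACO1, TFRC and IREB2. RefSeq windows were matched for 9 of the 10 members, all but FTH1.

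Of the uptake genes, TFRC was lower with PA, but only before the correction. TFRC lies at chr3:196027183-196082189 on the minus strand. It was at 588 and 538 CPM in the DMSO 12 h libraries and 324 and 468 with PA. At 24 h the DMSO libraries held 532 and 453 CPM and the PA libraries 345 and 343. Every PA library was under both DMSO libraries of its time, with the gap narrow at 12 h.

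TFRC fell by 0.51 ± 0.17 on the log2 scale (adjusted p = 0.0250) at 12 h and by 0.52 ± 0.17 (adjusted p = 0.0198) at 24 h. After that correction its change was 0.20 (adjusted p = 0.147) and 0.22 (adjusted p = 0.0879), of the opposite sign and not called. The call at 12 h was also lost without DMSO 12 h replicate 1 (-0.45, adjusted p = 0.144), without DMSO 12 h replicate 2 (-0.58, adjusted p = 0.0640) or without PA 12 h replicate 1 (-0.26, adjusted p = 0.234). The call at 24 h was lost for TFRC without DMSO 24 h replicate 1 (adjusted p = 0.151), PA 24 h replicate 1 (adjusted p = 0.0705) or PA 24 h replicate 2 (adjusted p = 0.0828). On the RPKM scale the TFRC change at 24 h was larger, at -0.82, but that scale uses library depth and not effective library size. The factors between the 2 were 0.826 and 0.839 in PA 24 h and 1.085 and 1.062 in DMSO 24 h. All genes are therefore shifted down with PA at 24 h on the RPKM scale, and the larger value is no separate evidence.

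SLC11A2, which passes ferrous iron out of the endosome, lies at chr12:50979401-51028566 on the minus strand. It was at 25.8 and 23.1 CPM with DMSO and 20.8 and 24.9 with PA at 12 h, where the groups overlapped (-0.10, adjusted p = 0.638). At 24 h it was at 23.8 and 27.5 CPM with DMSO and 17.03 and 20.6 with PA, which do not overlap, and it fell by 0.44 ± 0.16 (adjusted p = 0.0272). After the GC and length correction SLC11A2 was higher at 12 h (0.43, adjusted p = 0.0252) and not called at 24 h (0.13, adjusted p = 0.468). The SLC11A2 call at 24 h was lost without DMSO 24 h replicate 2 (adjusted p = 0.185), without PA 24 h replicate 1 (adjusted p = 0.192) or with no low-count filter (adjusted p = 0.0547).

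The exporter SLC40A1 (ferroportin), at chr2:189560579-189583758 on the minus strand, was at the floor. It held 0 to 4 reads per library of 26403984 to 35213154, with the 4 in DMSO 3 h replicate 1 and 3 in DMSO 24 h replicate 2. A count of 0 allows up to 3 reads, so no difference in SLC40A1 was detectable at this depth.

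The genes of the iron regulatory proteins moved apart as counted, and after the correction only ACO1 was called. ACO1, at chr9:32384603-32454769 on the plus strand, encodes IRP1, which is a cytosolic aconitase when it holds an iron-sulfur cluster. At 12 h it was at 43.6 and 41.3 CPM with DMSO and 98.9 and 80.8 with PA. At 24 h it was at 47.0 and 45.3 CPM with DMSO and 72.9 and 93.4 with PA. All 4 PA libraries were above all 8 DMSO libraries of the series, which lay between 41.3 and 47.7 CPM.

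ACO1 rose by 1.08 ± 0.15 on the log2 scale (adjusted p = 0.000147) at 12 h and by 0.85 ± 0.15 (adjusted p = 0.000435) at 24 h. Corrected for GC and length, the changes were larger, at 1.44 (adjusted p = 5.03e-06) and 1.26 (adjusted p = 7.78e-06). At 3 h ACO1 was at 43.5 and 45.5 CPM with DMSO and 62.8 and 57.0 with PA, which do not overlap (0.43, adjusted p = 0.188). That 3 h change passed only without PA 12 h replicate 1 or replicate 2 (adjusted p = 0.0418 for each).

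IREB2, at chr15:78437431-78501456 on the plus strand, encodes IRP2, which is controlled by its degradation. It was at 52.1 and 46.9 CPM with DMSO and 19.7 and 37.0 with PA at 12 h. At 24 h it was at 40.3 and 39.3 CPM with DMSO and 20.6 and 18.3 with PA. Both PA groups were under DMSO with no overlap, and at 12 h replicate 1 was the lower of the PA pair.

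IREB2 fell by 0.80 ± 0.23 (adjusted p = 0.0109) at 12 h and by 1.04 ± 0.23 (adjusted p = 0.00204) at 24 h. With the GC and length correction the IREB2 change was 0.20 (adjusted p = 0.126) at 12 h, of the opposite sign, and -0.03 (adjusted p = 0.832) at 24 h. The 12 h call on IREB2 was also lost without DMSO 12 h replicate 1 (adjusted p = 0.0816) or PA 12 h replicate 1 (-0.41, adjusted p = 0.0849). IREB2 has the lowest GC content of the members, and its transcript is longer than the median.

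FBXL5, the ubiquitin ligase subunit that senses iron through its hemerythrin domain, lies at chr4:15604539-15681679 on the minus strand. It was at 43.6 and 41.3 CPM with DMSO and 33.3 and 43.7 with PA at 12 h, and at 41.6 and 38.0 with DMSO and 39.3 and 36.4 with PA at 24 h. The groups overlapped at both times, with changes of -0.14 (adjusted p = 0.491) and -0.07 (adjusted p = 0.719). After the GC and length correction FBXL5 was called higher, by 0.59 (adjusted p = 0.000778) and 0.65 (adjusted p = 0.000232).

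NCOA4, the receptor that delivers ferritin to autophagosomes, lies at chr10:46005088-46030714 on the minus strand. It was at 109 and 105 CPM with DMSO and 136 and 140 with PA at 12 h. At 24 h it was at 109 and 99.4 CPM with DMSO and 164 and 175 with PA. The groups did not overlap at either time.

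NCOA4 rose by 0.37 ± 0.13 (adjusted p = 0.0330) at 12 h and by 0.71 ± 0.13 (adjusted p = 0.000646) at 24 h. Corrected for GC and length, it rose by 0.85 (adjusted p = 6.16e-05) and 1.22 (adjusted p = 1.27e-06). The 12 h call on NCOA4 was lost without DMSO 12 h replicate 1 or 2 (adjusted p = 0.114 and 0.158), without PA 12 h replicate 1 or 2 (adjusted p = 0.0588 and 0.0522), with no low-count filter (adjusted p = 0.107), with only the 4 libraries of the comparison (adjusted p = 0.157) and on the RPKM scale (adjusted p = 0.0908 to 0.0972).

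**Figure D3:**
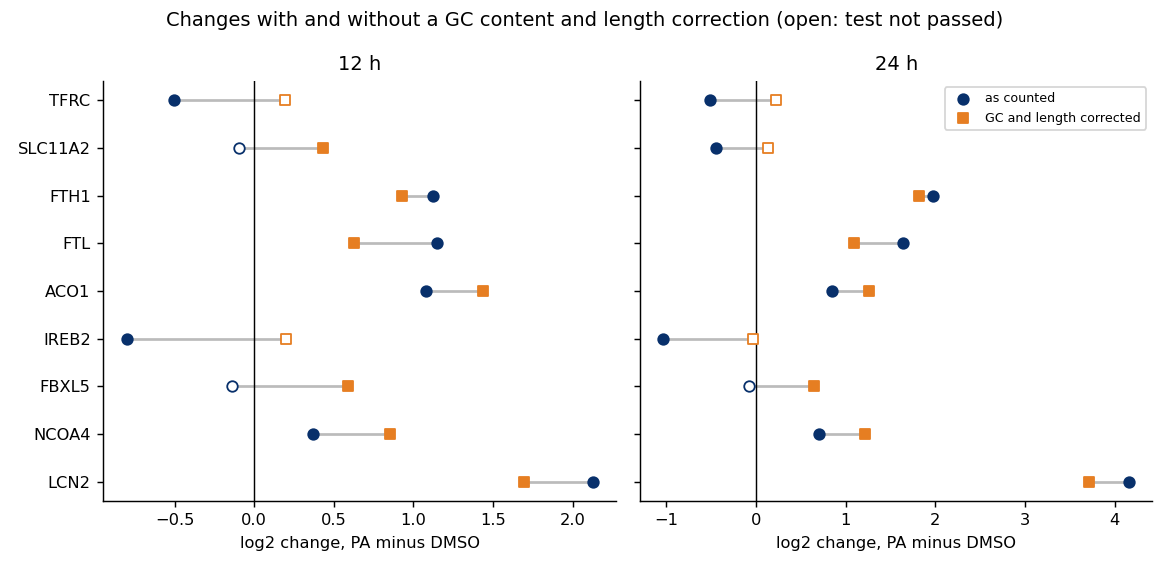
Change with PA against DMSO on the log2 scale (horizontal axes) at 12 and 24 h for each tested member, as counted (circles) and with each library's trend with GC content and length removed (squares), where open marks did not pass the test. FTH1, FTL, ACO1, NCOA4 and LCN2 stay to the right of 0 both ways, while TFRC moves from -0.51 to 0.20 and IREB2 from -0.80 to 0.20 at 12 h.

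Time with PA was compared through the difference between the effects at 2 times. Each effect is PA against DMSO of the same time, so a change in either arm moves it. Between 3 h and 24 h the effect on 3 members grew, where 14.4% of all tested genes were called (8.24% higher, 6.2% lower). The effect on FTH1 grew by 1.56 ± 0.28 (adjusted p = 0.00381), FTL by 1.42 ± 0.28 (adjusted p = 0.00654) and LCN2 by 3.51 ± 0.50 (adjusted p = 0.00112). The effect on FBXL5 differed by 0.02 ± 0.23 and that on TFRC by -0.33 ± 0.24.

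Between 3 h and 12 h, 0 members passed and 2.79% of genes did (2.1% higher, 0.685% lower). By unadjusted p 4 members were under 0.05 (FTH1, FTL, ACO1 and LCN2), among 3535 genes in all. DESeq2 called 2, FTL (adjusted p = 0.0353) and LCN2 (adjusted p = 0.0471). Between 12 h and 24 h, 0 members passed and 0.422% of genes did (0.263% higher, 0.158% lower). There 2 members had an unadjusted p under 0.05 (FTH1 and LCN2), among 1467 genes in all, and DESeq2 called 1, LCN2 (adjusted p = 0.0372). The share of all genes called by DESeq2 is not given for these 2 comparisons, so its counts stand without a background.

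The vehicle cultures moved too. Against DMSO 0 h, 0 members and 0% of genes were called in DMSO 3 h, where 0 members and 215 genes had an unadjusted p under 0.05. In DMSO 12 h 3 members were lower, where 1.46% of genes were called (0.323% higher, 1.13% lower). FTH1, at 179 and 230 CPM at 0 h, fell by 1.74 ± 0.20 (adjusted p = 0.00119). FTL, at 329 and 327 CPM at 0 h, fell by 1.05 ± 0.20 (adjusted p = 0.0217). LCN2, at 3.94 and 4.53 CPM at 0 h, fell by 2.93 ± 0.36 (adjusted p = 0.00187). These 3 are the genes for which the effect of PA grew between 3 h and 24 h. Both comparisons draw on the vehicle arm and on the same model. Their vehicle libraries differ, with 12 h and 0 h used here and 24 h and 3 h used there.

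In DMSO 24 h 2 members were lower, FTH1 by 1.53 ± 0.20 (adjusted p = 0.00122) and LCN2 by 3.82 ± 0.40 (adjusted p = 0.000242), where 2.46% of genes were called (0.527% higher, 1.93% lower). FTL was at -0.77 (adjusted p = 0.0571). The 12 h fall of FTL was lost without any 1 of the 4 libraries compared (adjusted p = 0.0921 to 0.268), and that of FTH1 without DMSO 12 h replicate 1 (adjusted p = 0.0509). With BEST1 reads added, FTH1 was at -0.98 (adjusted p = 0.0111) and -0.66 (adjusted p = 0.0413) at 12 and 24 h. The GC and length correction left the falls of FTH1 at -1.56 and -1.53 and those of LCN2 at -2.68 and -3.77, and called FTL at both times (-0.78, adjusted p = 0.00396, and -0.72, adjusted p = 0.00285).

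Against DMSO 0 h, a reference chosen after the fall in DMSO was seen, the members stood as follows. At 3 h of PA 0 members were called, where 1.64% of genes were (0.231% higher, 1.41% lower). Of the members only ACO1 had an unadjusted p under 0.05, among 2890 genes in all. At 12 h FTH1 was lower (-0.62, adjusted p = 0.0234), ACO1 was higher by 0.94 (adjusted p = 0.000443) and NCOA4 by 0.52 (adjusted p = 0.00781), where 37.8% of genes were called (18.6% higher, 19.2% lower). LCN2 was at -0.81 (adjusted p = 0.0520). With the correction 6 members were higher at 12 h, among them FBXL5 (0.81, adjusted p = 5.78e-05), SLC11A2 (0.56, adjusted p = 0.00613), TFRC (0.40, adjusted p = 0.00583) and IREB2 (0.36, adjusted p = 0.00925). There 2 were lower, FTH1 (-0.63) and LCN2 (-0.98, adjusted p = 0.00997). The share of all genes called with the correction is not given for this comparison, so these counts stand without a background.

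At 24 h FTL was 0.87 higher than at the start (adjusted p = 0.00214), ACO1 0.83 (adjusted p = 0.000479) and NCOA4 0.82 (adjusted p = 0.000208), where 53.2% of genes were called (25.2% higher, 28.1% lower). IREB2 was lower (-0.91, adjusted p = 0.00453), and with the GC and length correction it was at -0.02 (adjusted p = 0.862). Corrected in this way, 6 members were higher and 0 lower, again without the share of all genes beside them. FTL was at 0.37 (adjusted p = 0.0257), ACO1 at 1.26, NCOA4 at 1.28, FBXL5 at 0.79, SLC11A2 at 0.42 and TFRC at 0.35. FTH1, at 0.44 (adjusted p = 0.0683), and LCN2, at 0.35 (adjusted p = 0.333), were not called against the start. For LCN2 at 24 h, the difference of 4.16 between PA and DMSO stood beside a change of -3.82 in DMSO and of 0.35 with PA, each against the start. The fall of FTH1 at 12 h of PA was lost without DMSO 0 h replicate 2 (adjusted p = 0.184) or PA 12 h replicate 2 (adjusted p = 0.126), and reversed with BEST1 reads added (0.29, adjusted p = 0.151).

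Within the PA arm, 2 members were lower at 12 h than at 3 h and 2 higher, where 15.5% of genes were called (8.18% higher, 7.36% lower). FTH1 was at -0.93 ± 0.20 (adjusted p = 0.00720), LCN2 at -1.36 ± 0.30 (adjusted p = 0.00997), ACO1 at 0.59 ± 0.15 (adjusted p = 0.0184) and NCOA4 at 0.52 ± 0.13 (adjusted p = 0.0190). From 12 h to 24 h FTH1 rose by 1.06 ± 0.20 (adjusted p = 0.00457), FTL by 0.77 ± 0.20 (adjusted p = 0.0210) and LCN2 by 1.16 ± 0.31 (adjusted p = 0.0244), where 14.3% were called (6.59% higher, 7.71% lower). With FTH1 and BEST1 reads summed, the change from 3 h to 12 h was -0.13 (adjusted p = 0.604).

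Every step within the PA arm depended on how the spread was pooled. With only the 4 libraries compared, none of FTH1, LCN2, ACO1 and NCOA4 was called from 3 h to 12 h (adjusted p = 0.126 to 0.208), nor FTH1, FTL and LCN2 from 12 h to 24 h (adjusted p = 0.159 to 0.218). The total of all genes called for these steps also moved widely between settings, as given in the last section. This loss therefore cannot be read as particular to the members. ACO1 was also lost from 3 h to 12 h without PA 3 h replicate 2 (adjusted p = 0.183) or PA 12 h replicate 1 (adjusted p = 0.0899), NCOA4 without PA 3 h replicate 1 (adjusted p = 0.0640) or replicate 2 (adjusted p = 0.174), and LCN2 without PA 3 h replicate 1 (adjusted p = 0.0621). From 12 h to 24 h FTL and LCN2 were lost without PA 12 h replicate 2, PA 24 h replicate 1 or PA 24 h replicate 2 (adjusted p = 0.0586 to 0.110).

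Ratios within a library need no reference group. The ratio of TFRC to FTH1 RPKM was 0.812 and 0.509 at 0 h, and the DMSO 12 h libraries gave 2.88 and 2.71 and the DMSO 24 h libraries 2.31 and 1.93. The PA libraries gave 0.421 and 0.475 after 3 h, 0.589 and 1.44 after 12 h, and 0.387 and 0.367 after 24 h. The ratio was lower in each PA library than in both DMSO libraries of its time. The ratio of IREB2 to ACO1 was 0.572 to 0.952 in the 8 DMSO libraries and 0.155 to 0.465 in the 6 PA libraries, which do not overlap. FTH1 over FTL was 0.199 to 0.212 in the DMSO 12 h and 24 h libraries. It was 0.216 and 0.189 in the PA 12 h pair and 0.242 to 0.261 in the PA 24 h pair. At 3 h it was 0.298 and 0.431 with DMSO and 0.402 and 0.404 with PA, so only the 24 h groups were apart. These are descriptions on the RPKM scale, and the members differ in GC content and transcript length. The ratios with FTH1 also rest on reads that cannot be assigned with certainty between FTH1 and BEST1.

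**Figure D4:**
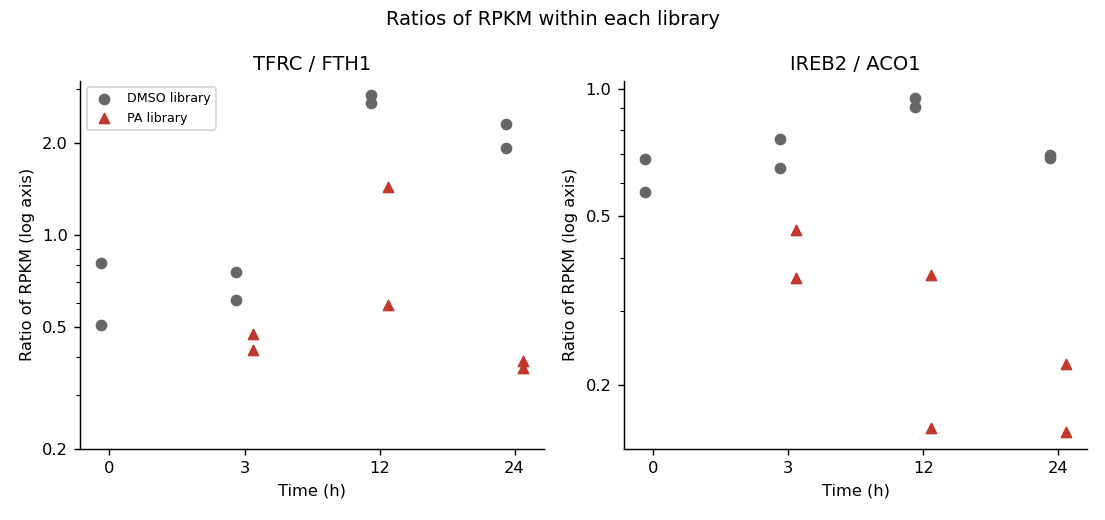
Ratio of RPKM values within each library (vertical axes, log scale) against time in h, for TFRC over FTH1 and for IREB2 over ACO1, with circles for DMSO libraries, triangles for PA libraries and times evenly spaced. The TFRC to FTH1 ratio is above 1.9 in all 4 DMSO libraries at 12 and 24 h and at 0.367 and 0.387 in the PA 24 h libraries. Reads given to BEST1, which overlaps FTH1, are not part of this ratio.

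Across the 7 group means, a description over groups that share libraries and depth, log2 CPM of FTH1 and LCN2 had a Pearson r of 0.967, TFRC and FTL -0.957, and TFRC and IREB2 0.908. Among 10825 genes, those with the pattern most like TFRC were RAP2A (0.997), SLC25A24 (0.990) and CD164 (0.988). For FTH1 they were GRPEL1 (0.991), ARRDC3 (0.989) and ZNF593 (0.986). For FTL they were PPDPF (0.997), COPRS (0.996) and C16orf45 (0.993). For NCOA4 they were DNTTIP1 (0.989), SLC35D2 (0.988) and INSIG2 (0.987). For LCN2 they were ALKBH2 (0.991), TINF2 (0.989) and GRPEL1 (0.989).

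Other genes of iron handling were read from 5 lists with 49 symbols, of which 37 were tested. At 3 h 0 were called, and with the correction 1 was higher (HMOX1, 0.65) and 2 lower (SLC25A37, -0.51, and CDC42BPA, -0.81). With it 1.79% of all genes were higher at 3 h and 2.54% lower. At 12 h 14 were higher and 7 lower (56.8% called), and at 24 h 14 higher and 5 lower (51.4% called), beside 48.5% and 54.6% of all genes. Their median change was 0.09, 0.22 and 0.04. With the GC and length correction 14 were higher and 5 lower at 12 h, and 16 and 10 at 24 h. Of all genes 22.5% were then higher and 17.6% lower at 12 h, and 27% and 22.4% at 24 h.

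Of 10 tested genes of heme iron, 6 were higher at 12 h and 7 at 24 h with 0 lower, beside 24.4% and 27.2% of all genes higher, with a median change of 0.63 and 0.74, and after the correction again 6 and 7 were higher with 0 lower, beside 22.5% and 27%. HMOX1, the oxygenase that frees iron from heme, had a mean of 8.81 CPM in DMSO and 26.7 with PA at 12 h, and of 8.08 and 44.2 at 24 h. It rose by 1.60 and 2.45, and with the correction by 0.97 and 1.84. BLVRA and BLVRB, which reduce biliverdin made by that step, rose by 0.87 and 1.20 at 12 h and by 0.89 and 1.55 at 24 h, and BLVRB at 12 h missed the threshold after the correction (0.41, adjusted p = 0.0551) and was at 0.69 at 24 h. UROD, an enzyme of heme synthesis, rose by 0.92 and 0.95, and after the correction by 0.47 and 0.48.

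Among other uptake genes 4 of 8 were higher and 2 lower at 12 h, and 3 higher and 1 lower at 24 h. Of all tested genes 48.5% and 54.6% were called at these times. TF, the transferrin gene, rose by 1.89 and 2.28 from a low level (a mean of 0.60 to 5.57 CPM). HFE, a partner of the transferrin receptor, rose by 0.91 and 0.98. STEAP2, a metalloreductase, was at -1.21 and -2.0, and with the correction it was at -0.10 (adjusted p = 0.654) and -0.90 (adjusted p = 0.000474), and at 12 h it was lost without DMSO 12 h replicate 1 (adjusted p = 0.0664). STEAP3, the endosomal ferrireductase, rose by 0.49 at 12 h, and with the correction it was at 0.12 (adjusted p = 0.301) at 12 h and -0.50 (adjusted p = 0.000313) at 24 h. Corrected in this way, 2 of the 8 were higher and 0 lower at 12 h, and 3 higher and 2 lower at 24 h. Of all genes 22.5% were then higher and 17.6% lower at 12 h, and 27% and 22.4% at 24 h.

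Of 3 tested genes on the export and hepcidin list, CP, the ferroxidase ceruloplasmin, rose by 1.38 and 1.39 with means of 0.87 to 4.84 CPM, and with the correction by 2.26 and 2.30. At 12 h CP was lost without DMSO 12 h replicate 2 (0.91, adjusted p = 0.213) or PA 12 h replicate 2 (0.74, adjusted p = 0.217), and at 24 h without DMSO 24 h replicate 2 (adjusted p = 0.101). BMP6, which induces hepcidin in liver, fell by 0.82 at 12 h and was at -0.14 (adjusted p = 0.399) at 24 h. With the correction BMP6 was at -1.17 (adjusted p = 1.63e-05) and -0.49 (adjusted p = 0.0109). Of 12 genes for iron chaperones and mitochondrial iron, 1 was higher and 2 lower at each of 12 h and 24 h. Of all tested genes 48.5% and 54.6% were called at these times. ABCB10 was at -1.06 and -1.05, the iron importer SLC25A37 (mitoferrin) at -0.85 and -0.47, PCBP1 at 0.35 at 12 h and CISD2 at 0.43 at 24 h. With the correction 3 of the 12 were higher and 3 lower at 12 h, and 3 higher and 5 lower at 24 h. Of all genes 22.5% were then higher and 17.6% lower at 12 h, and 27% and 22.4% at 24 h. PCBP1 was then at -0.09 (adjusted p = 0.477) at 12 h and -0.22 (adjusted p = 0.0477) at 24 h, and CISD2 at 1.32 and 1.5. The CISD2 call (adjusted p = 0.0483) was lost in 10 of 14 fits that each left out a library (0.34 to 0.52), the exceptions being those without a DMSO 3 h or PA 12 h library, and with the replicate block (adjusted p = 0.0609). PCBP1 was lost without either DMSO 12 h library (adjusted p = 0.107 and 0.115) or PA 12 h replicate 1 (adjusted p = 0.212). At 24 h SLC25A37 was lost without DMSO 24 h replicate 1 or PA 24 h replicate 2 (adjusted p = 0.0783 and 0.0885), and ABCB10 without DMSO 12 h replicate 1 at 12 h (adjusted p = 0.0532) and PA 24 h replicate 2 at 24 h (adjusted p = 0.0511).

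Of 4 other transcripts known to carry an iron-responsive element, 2 were higher and 2 lower at both times. Of all tested genes 48.5% and 54.6% were called at 12 and 24 h. CDC14A and CDC42BPA, with 3′ elements like TFRC, were at -1.22 and -1.85 at 12 h and -1.76 and -1.62 at 24 h. With the correction 2 of the 4 were higher and 1 lower at 12 h, and 2 higher and 2 lower at 24 h. Of all genes 22.5% were then higher and 17.6% lower at 12 h, and 27% and 22.4% at 24 h. CDC42BPA was then at -1.33 and -1.05, and CDC14A at -0.53 (adjusted p = 0.0916) and -0.99 (adjusted p = 0.00493).

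Of 8 partners of FBXL5 and NCOA4, 2 were higher and 3 lower at 12 and 24 h, beside 48.5% and 54.6% of all genes called. CUL1, the scaffold of the FBXL5 ligase, was at -0.63 and -1.07. HERC2, a ligase acting on NCOA4, was at -0.55 and -0.70, and TAX1BP1, an autophagy receptor, at -1.79 and -1.21. ATG9A, which supplies membrane to autophagosomes, rose by 0.98 and 1.03, and MCOLN1, a lysosomal cation channel, by 1.08 and 0.76. With the correction 3 of the 8 were higher and 4 lower at 12 h, and 2 higher and 3 lower at 24 h. Of all genes 22.5% were then higher and 17.6% lower at 12 h, and 27% and 22.4% at 24 h. ATG9A was then at 0.44 and 0.52, MCOLN1 at 0.36 and 0.02 (adjusted p = 0.904 at 24 h), and TAX1BP1 at -0.87 and -0.27 (adjusted p = 0.243 at 24 h). CUL1 at 12 h was lost without either DMSO 12 h library (adjusted p = 0.0893 and 0.0591) or PA 12 h replicate 1 (-0.29, adjusted p = 0.142), MCOLN1 at 24 h without DMSO 24 h replicate 1 (adjusted p = 0.0779), and TAX1BP1 at 24 h without PA 24 h replicate 2 (adjusted p = 0.101).

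Of 13 tested receptors and partners of LCN2 and genes of NF-kB or the acute phase, 1 was higher at 3 h, 4 higher and 2 lower at 12 h, and 8 higher and 3 lower at 24 h, beside 48.5% and 54.6% of all genes called at 12 and 24 h. With the correction these counts were 2 higher, then 3 higher and 1 lower, then 5 higher and 2 lower. Of all genes 1.79%, 22.5% and 27% were then higher at 3, 12 and 24 h, and 2.54%, 17.6% and 22.4% lower. The 3 h gene was NFKBIA, the NF-kB inhibitor that NF-kB itself induces, at 0.51 (adjusted p = 0.0477), and it was lost with the replicate number as a block (adjusted p = 0.0799) and in 12 of 14 fits that each left out a library (adjusted p = 0.0576 to 0.525), all but those without a PA 12 h library. The complement gene C3 rose by 1.32 and 1.42 and the transcription factor genes CEBPD by 1.10 and 1.54 and CEBPB by 0.74 and 1.35. Called lower were NFKBIZ (-1.08 and -0.87), BIRC3 (-1.57 and -1.40) and, at 24 h, TNFAIP3 (-0.61), named after their values were seen. With the correction CEBPD was at 0.28 (adjusted p = 0.240) and CEBPB at -0.08 (adjusted p = 0.553) at 12 h, and C3 at 1.0 and 1.12.

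Checks on the libraries touch these results. Replicates had a Spearman correlation of 0.989 to 0.996 in 6 groups and 0.978 in PA 12 h. Summed levels of 6 ductal epithelial markers were 5001 to 6020 CPM in DMSO, 6767 to 8262 in PA 3 h, 10464 to 15056 in PA 12 h and 18127 to 20920 in PA 24 h. At 12 and 24 h 4 of 6 were higher, beside 24.4% and 27.2% of all genes. Nearly all of the sum was KRT8, KRT18 and KRT19, while KRT7 reached at most 21.0 CPM, EPCAM 7.79 and CDH1 1.34. Acinar and erythroid markers never exceeded 3 reads, the 6 fibroblast markers summed to at most 0.791 CPM and the 5 endothelial ones to at most 1.30 CPM. The 7 measured leukocyte markers summed to 33.3 to 83.0 CPM, mostly CD68 and CD14, which were higher with PA at 12 and 24 h, while PTPRC, the defining one, had at most 5 reads. The part of the keratin rise in the results on iron genes was not tested.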

How the data were processed

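RNA-seq of PANC-1 cells was analysed in 14 libraries, 2 in each of 7 groups. The authors deposited a table of raw read counts per gene (28120 genes) and a table of RPKM (25447 genes). Libraries were paired reads of 151 nt from total RNA, and TopHat2, edgeR and GRCh38 are named without versions or roles, per the submitters' processing notes. The sources used here do not give the counting tool, its strand setting, the annotation release or the lengths used for RPKM.

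Counts were fitted with edgeR 4.0.16 (R 4.3.3): TMM scaling, filterByExpr, 1 mean per group over all 14 libraries with 7 residual degrees of freedom, and two-sided quasi-likelihood tests with Benjamini-Hochberg adjustment over 15181 genes at 0.05. Depth was 26403984 to 35213154 reads per library, the filter kept at least 99.95% of them, and the biological coefficient of variation was 15.1%. CPM are reads over the effective library size. Alternatives were DESeq2 1.42.0, its size factors in edgeR, 2 other filters, the replicate block, only the libraries compared, limma 3.58.1 on log2 values of the RPKM the authors deposited, plus 1 or 0.1, each library left out, and offsets for GC content and length (splines with 5 degrees of freedom on GENCODE 29 transcripts, 15071 genes). The fit was tested on simulated data.

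Same-numbered libraries were checked for pairing: over 21 group pairs the correlation of deviations exceeded 0.1 in 2 and lay under -0.1 in 3. The members and gene lists were chosen with earlier results of these data known, so no list is independent evidence. Named were all members, up to 3 genes per list and time with the smallest p among those called, and the 3 genes most alike in pattern to TFRC, FTH1, FTL, NCOA4 and LCN2 (mean of at least 2 CPM). A gene that this rule names is not reported here.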

Additional observations from a re-analysis of the deposited data

Results flagged for a closer look

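The effect of PA differed between 24 h and 3 h for 3 members by a test of the difference itself (edgeR, adjusted over all tested genes), where 14.4% of genes differed. FTH1 differed by 1.56 on the log2 scale (adjusted p = 0.00381), FTL by 1.42 (adjusted p = 0.00654) and LCN2 by 3.51 (adjusted p = 0.00112). In each case both PA libraries lay above both DMSO libraries at 24 h. The difference in the effect on FTH1 was 1.11 (adjusted p = 0.00697) with BEST1 reads added, and with the GC and length correction the values were 1.41 for FTH1, 0.96 for FTL and 3.15 for LCN2, all called. From 3 h to 24 h mean FTH1 went from 190 to 70.7 CPM in DMSO and from 254 to 278 with PA. LCN2 went from 3.94 to 0.30 CPM in DMSO and from 6.21 to 5.40 with PA. FTL went from 293 to 193 CPM in DMSO and from 342 to 600 with PA. For LCN2, and for FTH1 by its own reads, the larger change was the fall in DMSO, while FTL moved in both arms. BEST1 went from 507 to 400 CPM in DMSO and from 742 to 1177 with PA. Since reads of FTH1 and BEST1 cannot be assigned with certainty, the arm in which FTH1 moved more is uncertain. The cause was not tested.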

How the results depend on the processing

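With the GC and length correction, 0 members were lower at 12 h and 0 at 24 h, and signs turned for TFRC (0.20 and 0.22 at 12 and 24 h), SLC11A2 (0.43 and 0.13), FBXL5 (0.59 and 0.65), IREB2 (0.20 at 12 h), PCBP1 (-0.086 and -0.22) and CEBPB (-0.078 at 12 h). Against DMSO 0 h they turned for TFRC (0.40 and 0.35), IREB2 (0.36 at 12 h) and SLC11A2 (0.42 at 24 h). The correction called 1 member higher for the effect at 12 h minus 3 h, 5 for 24 h minus 3 h and 1 for 24 h minus 12 h. It called 4 higher for PA 12 h minus PA 3 h and 1 lower for PA 24 h minus PA 12 h. The shares of all genes called with the correction are not given for these comparisons, so the counts stand without a background.

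With only the libraries of the comparison, 0 members were lower at 12 h, 1 was lower for the effect at 24 h minus 3 h, 2 were higher for DMSO 12 h minus DMSO 0 h, and 0 were higher or lower within the PA arm. DESeq2 called 2 higher for the effect at 12 h minus 3 h and 1 for 24 h minus 12 h. No low-count filter gave 2 and 2, and 1 lower for PA 24 h minus PA 12 h. Limma called 1 lower for the effect at 24 h minus 3 h with either pseudocount or an RPKM minimum, and 1 higher for PA 24 h minus PA 12 h with 0.1. On RPKM, BEST1 was at -0.048 (pseudocount 1) and -0.19 (0.1) at 12 h. With BEST1 reads added to FTH1, 1 member was lower for PA 12 h minus PA 3 h, and FTH1 was at 0.29 for PA 12 h minus DMSO 0 h. The cause was not tested for any of these.

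Leaving out each library gave 0 to 2 members higher at 3 h, 4 to 5 higher and 0 to 2 lower at 12 h, and 5 higher and 1 to 3 lower at 24 h. For the effects it gave 0 to 4 higher and 0 to 2 lower (12 h minus 3 h), 3 to 4 higher and 0 to 1 lower (24 h minus 3 h) and 0 to 2 higher (24 h minus 12 h). For DMSO against 0 h it gave 1 to 3 lower at 12 h and 2 to 3 at 24 h. Within the PA arm it gave 0 to 2 higher and 1 to 3 lower (12 h minus 3 h), then 1 to 3 higher and 0 to 2 lower (24 h minus 12 h). Removing PA 12 h replicate 2 gave the 4, removing DMSO 12 h replicate 1 or PA 12 h replicate 1 the 0 lower at 12 h, and removing PA 24 h replicate 1 the 1 lower at 24 h.

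The replicate block left the members called at 5 higher and 2 lower at 12 h and 5 and 3 at 24 h, and the numbers did not pair the libraries. Of 207 results it changed 2. The number of genes called in all moved by over 1.5 times in several settings. At 3 h it was 261, and 584 with DESeq2, 1115 with no filter, 1183 with only the libraries compared, 118 with limma at 0.1, 656 with the correction and 28 to 1549 leaving out a library. At 12 h it was 7363, and 3671 with only the libraries compared. For the effect at 12 h minus 3 h it was 423 against 46 to 1808 over these settings and 43 to 4957 leaving out a library. For 24 h minus 3 h it was 2192 against 3636 with only the libraries compared, and for 24 h minus 12 h 64 against 0 to 315. For DMSO 12 h it was 221 against 113 to 2850 over these settings and 4 to 1296 leaving out a library, and for DMSO 24 h 373 against 703 to 2644 and 27 to 1253. For PA 12 h minus PA 3 h it was 2359 against 11 and 3747 (449 to 5260), for PA 24 h minus PA 12 h 2171 against 2 (780 to 4332), for the effect at 24 h minus 3 h 665 to 4340, and at 24 h minus 12 h 4 to 522. Against DMSO 0 h it was 249 for PA 3 h against 140 to 2402 (27 to 1866), 5746 for PA 12 h against 1791 (2892 to 7628), and 8081 for PA 24 h (5778 to 9011). Of called genes at 24 h, 49.7% were higher by counts and 32.6% by RPKM.

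The alternatives for the DMSO and PA arms were added after seeing the data. Adding the reads of ferritin pseudogenes was not run, because none of the 25 for FTH1 and 16 for FTL has a row in the tables used. The low counts of LCN2 in DMSO at 12 and 24 h limit its change.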
